A study of Mus musculus with 34 samples.

Results

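The p53 target genes followed here were Cdkn1a, Trp53inp1, Sesn2, Aen, Mdm2, Ccng1, Phlda3, Bax and Fas, 9 of the 21789 genes in the deposited counts of mouse embryonic lungs. They were taken by symbol, and all 9 were found in the counts and passed the low-count filter. The study measured poly(A) RNA of whole lungs in 34 libraries of 10 groups. Lin28A, which binds RNA and keeps let-7 microRNAs from maturing, was overexpressed in lung epithelial cells at E18.5 (n = 3, Nkx2.1 in the library titles), globally at E12.5 (n = 3), E14.5 (n = 4), E16.5 (n = 3) and E18.5 (n = 5, Vasa in the titles), or in mesenchymal cells at E18.5 (n = 2, Wt1 in the titles). Control lungs without Lin28A overexpression were taken at E12.5 (n = 3), E14.5 (n = 3), E16.5 (n = 3) and E18.5 (n = 5). The labels give no allele, promoter or strain, and per the labels all groups, controls included, drank water with doxycycline (1 g/L) beginning on day 0.5. Nothing states that replicates were separate animals or litters, so p-values measure the spread between these libraries, which may be technical.

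p53 is a transcription factor that is held at a low level by the ubiquitin ligase Mdm2 and the related inhibitor Mdm4, and that accumulates after DNA damage, ribosomal stress or oncogene activity. It binds a pair of similar decamers in DNA and switches on genes that stop the cell cycle, adapt metabolism, drive apoptosis and restore the low p53 level. Many of these genes are also expressed without p53 activity, and Cdkn1a is known to rise in cells that leave the cell cycle to differentiate.

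Library totals ran between 7147301 and 17624884 counts. Levels are given in CPM, the usual scaling of counts by the normalized library total, and differences as log2 folds ± SE. Rose, fell, higher, lower and called mean an adjusted p below 0.05 in edgeR's quasi-likelihood test over 18319 genes. Lin28a, the overexpressed gene, stood at 625, 1301 and 929 CPM in the epithelial libraries, at 448 to 744 CPM in the E18.5 global ones and at 412 and 550 CPM in the mesenchymal ones, against 0.361 to 2.88 CPM in E18.5 controls. The summed level of 12 epithelial marker genes was 4898 to 5722 CPM in epithelial lungs, 2149 to 2790 CPM in global lungs and 2170 to 2546 CPM in mesenchymal lungs, against 2811 to 3188 CPM in controls, and no marker was at 0 in any group. Some libraries stood apart. Epithelial library 1 held 24443 CPM of 8 erythroid genes, against 3468 and 4375 CPM in the other epithelial libraries and 4312 to 9836 CPM in controls. At E14.5, control library 3 held 390 CPM of 8 thymus genes and global library 4 held 546 CPM of 6 kidney genes, beside medians of 7.99 CPM and 29.5 CPM in their own groups. The 3 E12.5 global libraries held 65.4 to 2132 CPM of 8 heart muscle genes, against 621 to 2548 CPM in the E12.5 controls.

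The DNA that p53 is known to read is shown first, for the members whose promoter window held it. RefSeq promoter windows (GRCm38.p6, 250 bases before to 50 after each start site) were matched for 8 members, all but Trp53inp1. The p53 consensus decamer, which reads the same on both strands, was present in windows of 5 of these 8 members, while 9.55% of 27025 genes held it in a window of this length. The stretches below carry 10 bases on each side, with the decamers in capitals. Only decamers that match the consensus in every letter were taken, so near matches stay in lower case.
Cdkn1a: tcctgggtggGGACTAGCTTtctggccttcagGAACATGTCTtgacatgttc
Mdm2: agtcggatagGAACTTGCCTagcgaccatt
Ccng1: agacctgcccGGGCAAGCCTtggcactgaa
Bax: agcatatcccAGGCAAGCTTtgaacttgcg
Aen: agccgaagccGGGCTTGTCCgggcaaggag
The Cdkn1a stretch lies at chr17:29090896-29090947 on the plus strand, and its decamers begin 73 and 51 bases before a start site with 12 bases between them. The 10 bases directly after the second decamer miss the consensus at their first letter only, so they were not counted. Which of these p53 would pair was not tested. Another Cdkn1a window, at a start site further downstream (chr17:29093519-29093818), held no decamer. A pair of decamers spaced by at most 13 bases was present in windows of 20 of the 27025 genes (0.074%), and Cdkn1a was the only member among them. The Mdm2 stretch lies at chr10:117710925-117710954 on the minus strand and the Ccng1 stretch at chr11:40755452-40755481 on the minus strand. The Bax stretch lies at chr7:45467080-45467109 on the minus strand and the Aen stretch at chr7:78895927-78895956 on the plus strand. These matches describe letters in a window and do not show binding, and sites further away or within introns were not searched.

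At E18.5 most of the 9 genes were higher than in controls where Lin28A was expressed in the epithelium, and most were lower where it was expressed globally or in the mesenchyme. In epithelial lungs 7 of the 9 rose and none fell against controls, where 18% of all genes tested rose and 15.2% fell. In global lungs 2 rose and 5 fell, where 32.1% of all genes rose and 32.7% fell. In mesenchymal lungs 2 rose and 6 fell, where 27.4% rose and 26.9% fell. The median log2 fold of the 9 was 0.47 in epithelial, -0.24 in global and -0.44 in mesenchymal lungs, beside medians over all genes of -0.02, -0.01 and -0.02. The 3 comparisons share the same 5 control libraries. Without epithelial library 1, the one rich in erythroid transcripts, 7 of 9 were again called in epithelial lungs.

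**Figure D1:**
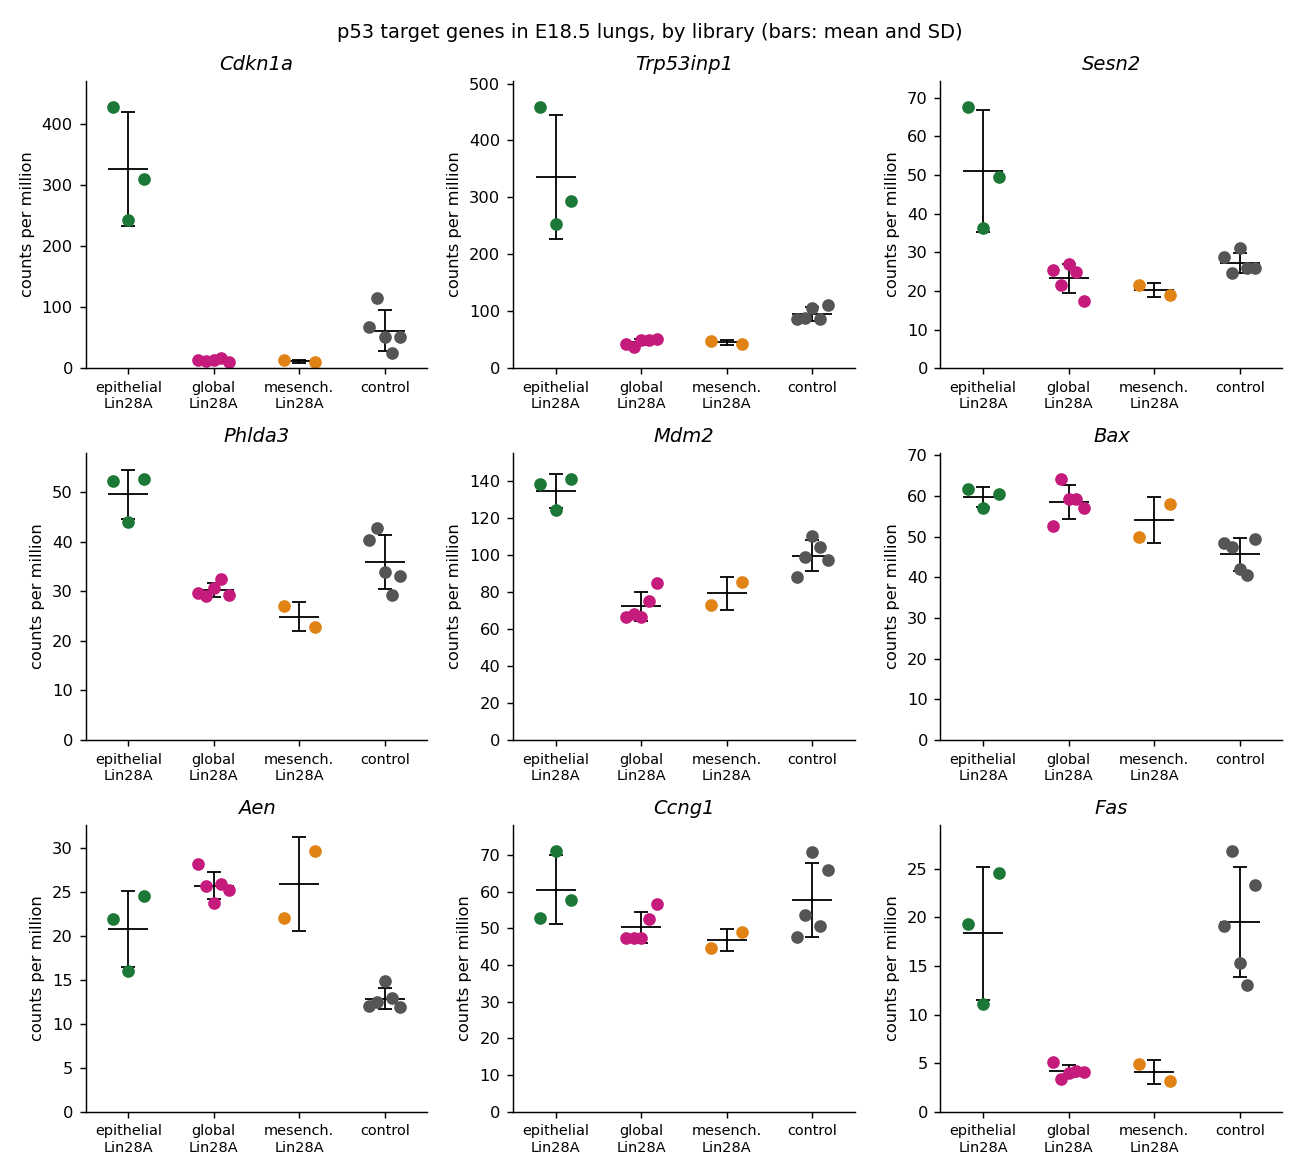
Level of each of the 9 p53 target genes in CPM in every E18.5 library, with epithelial (n = 3), global (n = 5), mesenchymal (n = 2) and control (n = 5) lungs set left to right; the horizontal bar is the mean and the vertical bar the SD. Cdkn1a and Trp53inp1 lie above 240 CPM in every epithelial library and at or below 114 CPM in all others, Fas lies below 6 CPM in all global and mesenchymal libraries, and Ccng1 overlaps the controls in all 3 kinds of Lin28A lung.

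Cdkn1a (ENSMUSG00000023067, chromosome 17, 29090976 to 29100727 on GRCm38) encodes p21, the inhibitor of cyclin-dependent kinases through which p53 halts the cell cycle. It stood at 427, 242 and 309 CPM in the epithelial libraries. The global libraries held 13.2, 12.3, 13.8, 15.8 and 10.6 CPM and the mesenchymal ones 13.1 and 9.79 CPM, against 67.7, 114, 50.1, 24.8 and 50.1 CPM in the controls. Every epithelial library was above every control, and every global and mesenchymal library was below every control. Cdkn1a thus rose 5.35-fold in epithelial lungs (log2 fold 2.42 ± 0.26, edgeR adjusted p = 2.39e-08), fell 4.63-fold in global lungs (-2.21 ± 0.25, adjusted p = 6.6e-09) and fell 5.31-fold in mesenchymal lungs (-2.41 ± 0.36, adjusted p = 1.96e-06). Marker genes of some cell types were lower along with Cdkn1a in global and mesenchymal lungs. Of those given here, the mesothelial ones were also higher in epithelial lungs. The epithelial marker sum given above had the same order. It was above every control in each epithelial library and below every control in each global and mesenchymal library. The summed level of 6 mesothelial markers was 1578 to 1919 CPM in epithelial, 159 to 284 CPM in global and 192 and 258 CPM in mesenchymal lungs, against 871 to 1494 CPM in controls. Krt19 is in both this list and the epithelial one, and its part in the mesothelial sum was not tested. That of 5 alveolar type 1 markers was 1934 to 2559 CPM in epithelial, 108 to 237 CPM in global and 137 and 330 CPM in mesenchymal lungs, against 2225 to 3929 CPM in controls. That of 6 alveolar type 2 markers was 9528 to 16596 CPM in epithelial lungs, against 15199 to 23961 CPM in controls. It was lower in every global and mesenchymal library than in every control. In epithelial lungs both alveolar sums overlapped the controls and lay toward lower levels, while Cdkn1a rose. No marker of the mesothelial and alveolar lists was at 0 in all libraries of a group. The part of these cells and of the epithelium in the levels of Cdkn1a and the other members was not tested. The controls themselves spread widely, with the highest library above 100 CPM and the lowest near 25. An unstranded count would also take in a short opposite-strand annotation that overlaps 273 of the 3553 exonic bases of Cdkn1a.

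Ccng1 (chromosome 11, 40748552 to 40755311), which encodes cyclin G1, a p53-induced partner of the B' subunits of phosphatase 2A, did not pass edgeR's test in any E18.5 comparison. Its levels were 52.8, 71.2 and 57.8 CPM in epithelial lungs, 47.3 to 56.8 CPM in global lungs and 44.7 and 49.0 CPM in mesenchymal lungs, against 47.7 to 70.7 CPM in controls. The log2 fold was 0.06 ± 0.13 in epithelial lungs (adjusted p = 0.732), -0.20 ± 0.11 in global lungs (adjusted p = 0.105) and -0.31 ± 0.15 in mesenchymal lungs (adjusted p = 0.0805). DESeq2 called it lower in global (-0.26, adjusted p = 0.0459) and mesenchymal lungs (-0.36, adjusted p = 0.0363) and higher in epithelial than in global (0.32, adjusted p = 0.0299) and mesenchymal lungs (0.43, adjusted p = 0.0231), as did edgeR with DESeq2 size factors. Leaving out control library 1 likewise brought calls in global (-0.26) and mesenchymal lungs (-0.37). Each kind of Lin28A lung overlapped the controls, while all epithelial libraries lay above both mesenchymal ones.

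Trp53inp1 (chromosome 4, 11156431 to 11174379) encodes a stress-induced protein that promotes p53 activity and autophagy. Its levels were 459, 253 and 294 CPM in the epithelial libraries. They were 41.9, 38.0, 49.3, 49.3 and 51.8 CPM in the global libraries and 48.5 and 41.9 CPM in the mesenchymal ones, against 87.0, 87.2, 105, 86.0 and 111 CPM in the controls. The groups did not overlap with controls in any of the 3 comparisons. Trp53inp1 rose 3.51-fold in epithelial lungs (log2 fold 1.81 ± 0.16, edgeR adjusted p = 1.05e-09) and fell 2.07-fold in global (-1.05 ± 0.15, adjusted p = 3.57e-07) and 2.11-fold in mesenchymal lungs (-1.08 ± 0.20, adjusted p = 5.37e-05).

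Sesn2 (chromosome 4, 132492032 to 132510501) encodes sestrin 2, a leucine sensor that restrains the growth kinase mTORC1 and is induced by both p53 and the stress factor Atf4. The epithelial libraries held 67.6, 36.2 and 49.4 CPM. The global libraries held 25.4, 21.5, 27.0, 24.9 and 17.5 CPM and the mesenchymal ones 21.5 and 18.9 CPM, against 28.7, 24.7, 31.2, 26.0 and 26.0 CPM in the controls. Epithelial libraries were all above the controls, mesenchymal ones all below them, and the global range overlapped the control range. Sesn2 rose in epithelial lungs (0.90 ± 0.14, edgeR adjusted p = 1.47e-05) and fell in mesenchymal lungs (-0.44 ± 0.17, adjusted p = 0.0343). The mesenchymal call was lost on leaving out control library 1 (-0.42), control library 3 (-0.38), mesenchymal library 1 (-0.52) or mesenchymal library 2 (-0.33), and in a fit of the E18.5 libraries alone (-0.46). In global lungs it did not pass (-0.23 ± 0.13, adjusted p = 0.112). In the 3 epithelial libraries Cdkn1a, Trp53inp1 and Sesn2 were highest in library 1 and lowest in library 2, whereas Lin28a was lowest in library 1 and highest in library 2. Library 1 was also the library rich in erythroid transcripts, and the part of that in its levels was not tested. Without it the log2 folds were 2.18 for Cdkn1a, 1.52 for Trp53inp1 and 0.65 for Sesn2, all still called.

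Members that act in cell death did not move as one group. Bax (chromosome 7, 45461697 to 45466898), the pore-forming effector of mitochondrial apoptosis, rose in epithelial and global lungs and, as a call that depended on the processing, in mesenchymal lungs. It stood at 61.8, 56.9 and 60.4 CPM in epithelial, 52.6 to 64.2 CPM in global and 49.97 and 58.0 CPM in mesenchymal lungs, against 40.6 to 49.5 CPM in controls. No Lin28A library overlapped the controls. The log2 folds were 0.39 ± 0.08 in epithelial (edgeR adjusted p = 0.000441), 0.36 ± 0.07 in global (adjusted p = 6.51e-05) and 0.24 ± 0.09 in mesenchymal lungs (adjusted p = 0.0271), and the last call ended without mesenchymal library 2 (0.15), control library 3 (0.21) or control library 4 (0.20). It was also lost under DESeq2 (0.19, adjusted p = 0.0917), with DESeq2 size factors (0.19, adjusted p = 0.0975), with no low-count filter (0.22, adjusted p = 0.0656) and in a fit of the E18.5 libraries alone (0.22, adjusted p = 0.0958). Of the 1576 exonic bases of Bax, 192 are shared with a same-strand gene, Gm45808.

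Aen (chromosome 7, 78895854 to 78911209), a nuclease that enhances apoptosis after p53 activation, rose in all 3 kinds of Lin28A lung. It stood at 21.9, 16.0 and 24.5 CPM in epithelial lungs, 28.1, 25.6, 23.8, 25.8 and 25.2 CPM in global lungs and 22.1 and 29.7 CPM in mesenchymal lungs, against 12.0, 12.53, 14.9, 12.9 and 11.9 CPM in controls. All 10 Lin28A libraries lay above all 5 controls. The log2 folds were 0.69 ± 0.12 in epithelial lungs (edgeR adjusted p = 3.32e-05), 1.00 ± 0.10 in global lungs (adjusted p = 1.13e-09) and 1.00 ± 0.13 in mesenchymal lungs (adjusted p = 1.47e-07). Aen and, with the limits given above for mesenchymal lungs, Bax were the members called higher in all 3 comparisons.

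Phlda3 (chromosome 1, 135766119 to 135769136), a pleckstrin-homology protein that blocks the survival kinase Akt, held 52.1, 43.9 and 52.6 CPM in epithelial lungs. It held 29.0 to 32.5 CPM in global lungs and 26.9 and 22.8 CPM in mesenchymal lungs, against 40.3, 42.6, 33.9, 29.3 and 33.0 CPM in controls. Epithelial libraries lay above all controls and mesenchymal ones below, while the global libraries overlapped the lower controls. It rose in epithelial lungs (0.47 ± 0.11, edgeR adjusted p = 0.000979) and fell in mesenchymal lungs (-0.52 ± 0.13, adjusted p = 0.0011). Leaving out mesenchymal library 2 cost the second of these calls (-0.39). The fall in global lungs was small (-0.24 ± 0.09, adjusted p = 0.0278) and its call ended without control library 1 (-0.20), control library 2 (-0.17), global library 2 (-0.23) or global library 5 (-0.23), and in a fit of the E18.5 libraries alone (-0.25).

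Fas (chromosome 19, 34290666 to 34327772), the death receptor for Fas ligand, fell in global and mesenchymal lungs and did not pass the test in epithelial ones. It stood at 19.4, 11.1 and 24.6 CPM in epithelial lungs, overlapping the controls, which held 19.1, 26.9, 15.3, 13.02 and 23.4 CPM. The log2 fold between these groups was -0.09 ± 0.22 (edgeR adjusted p = 0.796). In global lungs it held 5.15, 3.39, 4.03, 4.17 and 4.11 CPM and in mesenchymal lungs 4.92 and 3.19 CPM, all below every control, and it fell 4.68-fold (-2.23 ± 0.21, adjusted p = 1.71e-10) and 4.79-fold (-2.26 ± 0.30, adjusted p = 2.37e-07). The summed level of 8 leukocyte markers moved with it, at 409 to 666 CPM in epithelial, 104 to 144 CPM in global and 136 and 165 CPM in mesenchymal lungs, against 496 to 987 CPM in controls. So did 8 endothelial markers, at 2801 to 3839 CPM in epithelial, 1360 to 1553 CPM in global and 1422 and 1645 CPM in mesenchymal lungs, against 2940 to 4214 CPM in controls. No marker of either list was at 0 in all libraries of a group, and the part of these cells in the Fas levels was not tested. In whole-lung RNA, fewer cells of a type and less RNA per cell cannot be told apart.

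Mdm2 (chromosome 10, 117688875 to 117710758), the ubiquitin ligase that p53 induces and that then destroys p53, stood at 138, 124 and 141 CPM in epithelial lungs. It stood at 66.1, 67.9, 66.4, 75.2 and 84.8 CPM in global lungs and 72.9 and 85.2 CPM in mesenchymal lungs, against 87.8, 98.7, 110, 104 and 97.3 CPM in controls. The groups were separate from the controls on both sides, though the changes were small. Mdm2 rose 1.35-fold in epithelial lungs (0.43 ± 0.08, edgeR adjusted p = 0.000221), fell 1.38-fold in global lungs (-0.47 ± 0.07, adjusted p = 3.19e-06) and fell 1.26-fold in mesenchymal lungs (-0.33 ± 0.10, adjusted p = 0.00585), where the call ended without mesenchymal library 1 (-0.21).

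The p53 gene itself did not follow Cdkn1a, Trp53inp1, Mdm2 and Phlda3, which rose in epithelial and fell in global and mesenchymal lungs. It rose in all 3 kinds of Lin28A lung, as did Aen and, with the limits given above, Bax. In epithelial lungs the Trp53 libraries overlapped the controls, and the Trp53 calls were not checked with libraries left out. Trp53 stood at 121, 136 and 113 CPM in epithelial, 181 to 228 CPM in global and 170 and 203 CPM in mesenchymal lungs, against 86.3 to 116 CPM in controls. Its transcript rose by 0.29 ± 0.11 log2 in epithelial lungs (edgeR adjusted p = 0.0427), by 0.99 ± 0.10 in global lungs (adjusted p = 3.53e-10) and by 0.89 ± 0.12 in mesenchymal lungs (adjusted p = 4.63e-07). Mdm4, the inhibitor of p53 that binds its activation domain, stood at 117, 165 and 141 CPM in epithelial, 174 to 216 CPM in global and 192 and 201 CPM in mesenchymal lungs, against 193 to 225 CPM in controls. It fell in epithelial lungs (-0.56 ± 0.10, adjusted p = 4.71e-05) and did not pass in global (-0.16 ± 0.08, adjusted p = 0.0853) or mesenchymal lungs (-0.08 ± 0.11, adjusted p = 0.53). p53 is controlled mainly as a protein, and no protein was measured.

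**Figure D2:**
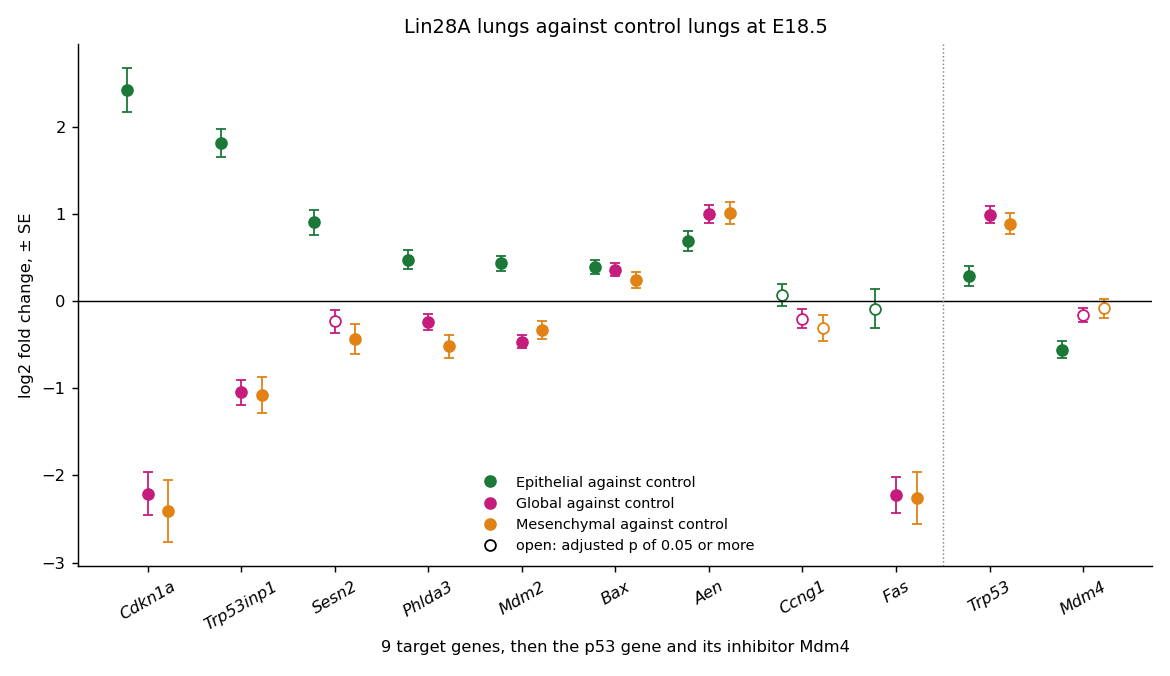
Log2 fold (vertical axis, ± SE) of the 9 p53 target genes and of Trp53 and Mdm4 in epithelial, global and mesenchymal Lin28A lungs against controls at E18.5; open circles have an adjusted p of 0.05 or more. Cdkn1a, Trp53inp1, Phlda3 and Mdm2 lie above 0 in epithelial and below 0 in the other lungs, Bax and Aen lie above 0 in all, and Fas falls only in the global and mesenchymal comparisons while the epithelial one did not pass.

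The direct comparison of the sites tested these differences. Against global lungs, 6 members were higher in epithelial lungs and 1 was lower, where 31.8% of all genes were higher and 31.3% lower. Against mesenchymal lungs, 6 were higher and none lower, where 26.5% of all genes were higher and 26.8% lower. The 6 were the same in both: Cdkn1a, Trp53inp1, Fas, Sesn2, Mdm2 and Phlda3. The gap was 24.8-fold for Cdkn1a between epithelial and global lungs (log2 fold 4.63 ± 0.28, edgeR adjusted p = 4.4e-14) and 28.4-fold between epithelial and mesenchymal lungs (4.83 ± 0.41, adjusted p = 2.88e-10). Trp53inp1 was 7.27-fold higher in epithelial than in global lungs (2.86 ± 0.16) and 7.42-fold higher than in mesenchymal lungs (2.89 ± 0.23), and Fas 4.41-fold (2.14 ± 0.23) and 4.51-fold (2.174 ± 0.31). Sesn2 was higher by 1.137 ± 0.14 and 1.34 ± 0.19 log2, Mdm2 by 0.90 ± 0.08 and 0.77 ± 0.11, and Phlda3 by 0.71 ± 0.11 and 0.99 ± 0.14. The adjusted p-values of these 10 comparisons ran up to 1.19e-06. Bax differed by 0.03 ± 0.08 between epithelial and global lungs (adjusted p = 0.755) and by 0.15 ± 0.10 between epithelial and mesenchymal lungs (adjusted p = 0.234). Aen was lower in epithelial than in global lungs (-0.30 ± 0.11, adjusted p = 0.0222) and did not pass against mesenchymal lungs (-0.31 ± 0.14, adjusted p = 0.0605). The first of these calls was lost on leaving out epithelial library 2 (-0.15), under DESeq2 (-0.25, adjusted p = 0.0589), with DESeq2 size factors (-0.25, adjusted p = 0.0535) and in a fit of the E18.5 libraries alone (-0.31, adjusted p = 0.0735). These comparisons share the epithelial libraries, and the epithelial marker sum differed between the groups as given above. The part of that in these gaps was not tested.

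Per kilobase of exon, Cdkn1a had the highest mean level of the 9 in epithelial lungs, at 91.7 CPM per kilobase. It was followed by Trp53inp1 (51.8 CPM per kilobase), Bax (37.9), Phlda3 (31.8), Mdm2 (26.4), Ccng1 (17.2), Sesn2 (14.7), Fas (8.90) and Aen (3.59). In E18.5 controls Bax came first, at 28.9 CPM per kilobase, followed by Phlda3 (23.0), Mdm2 (19.6) and Cdkn1a (17.3). Over all 10 groups, the epithelial group had the highest mean CPM of Cdkn1a, Trp53inp1, Sesn2, Phlda3 and Mdm2, and for each of these 5 its range did not overlap that of the next group, the E18.5 controls. How many of all genes do so was not counted, so this describes the members only. The lowest mean CPM of Cdkn1a was in E12.5 controls, which did not overlap the next group, the E12.5 global lungs. Among the groups in between, from E16.5 controls (17.6 CPM) down to E12.5 global lungs (7.13 CPM), each overlapped its neighbour. The order of Fas was led by E18.5 controls and epithelial lungs, whose ranges overlapped, and ended with E12.5 global lungs at 0.639 CPM. For Ccng1, every group overlapped its neighbour in the order, which ran between 70.2 CPM in E12.5 controls and 46.8 CPM in mesenchymal lungs.

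The time course of global Lin28A asked when these differences appeared. At E12.5 none of the 9 was called in either direction by edgeR, where 0.12% of all genes rose and 0.104% fell. Only 1 member had an unadjusted p under 0.05, and DESeq2 called 1. This was Fas in both tools, at 0.783, 0.501 and 0.633 CPM in global lungs, against 1.45, 1.69 and 2.48 CPM in controls (log2 fold -1.51 ± 0.35, edgeR adjusted p = 0.0601), with 7 to 33 counts per library. At E14.5 Fas alone fell and no member rose, where 8.44% of all genes fell and 4.44% rose. It stood at 1.64, 2.07, 1.77 and 1.56 CPM in global lungs, against 3.99, 3.89 and 4.67 CPM in controls (-1.24 ± 0.27, adjusted p = 0.0027). Without both libraries that were rich in thymus or kidney genes the fold was -1.10 and the call ended (adjusted p = 0.0585).

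By E16.5, 2 members rose and 4 fell in global lungs, where 17% of all genes rose and 20.1% fell. Trp53inp1 stood at 32.8, 37.9 and 35.9 CPM in global lungs, against 62.7, 74.3 and 53.2 CPM in controls (-0.83 ± 0.19, edgeR adjusted p = 0.000951). Fas stood at 2.99, 3.97 and 3.79 CPM, against 7.08, 10.4 and 7.53 CPM (-1.21 ± 0.27, adjusted p = 0.000704), and Mdm2 at 63.5, 56.3 and 70.9 CPM, against 87.9, 86.6 and 79.0 CPM (-0.41 ± 0.10, adjusted p = 0.00122). None of these groups overlapped. Cdkn1a stood at 6.94, 9.35 and 12.0 CPM in global lungs, against 19.1, 19.1 and 14.7 CPM in controls (-0.90 ± 0.33, adjusted p = 0.032), and its call ended without control library 1 (-0.84), control library 2 (-0.84), global library 1 (-0.72) or global library 2 (-0.89). The members that rose were again Aen (35.3, 35.9 and 30.1 CPM in global lungs, against 18.01, 16.6 and 20.2 CPM in controls; 0.89 ± 0.13, adjusted p = 3.12e-06) and Bax (0.36 ± 0.09, adjusted p = 0.00252). Sesn2, Ccng1 and Phlda3 did not pass at E12.5, E14.5 or E16.5.

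The control lungs changed over the same days, and each step was tested against the earlier day. Between E12.5 and E14.5, 2 members rose and none fell, where 11.3% of all genes rose and 5.45% fell. The 2 were Cdkn1a (1.23 ± 0.35, edgeR adjusted p = 0.0159) and Fas (1.17 ± 0.29, adjusted p = 0.00487). The call of Cdkn1a ended without E12.5 control library 3 (1.203) or E14.5 control library 3 (1.06). Between E14.5 and E16.5, 3 rose (Fas, Trp53inp1 and Mdm2) and 2 fell (Aen and Bax), where 18.1% of all genes rose and 17.8% fell. Between E16.5 and E18.5, 5 rose and 1 fell, where 17.1% rose and 19.1% fell. In this step Cdkn1a rose 3.46-fold (1.79 ± 0.29, adjusted p = 1.98e-05), Fas 2.34-fold (1.23 ± 0.23, adjusted p = 0.000139) and Trp53inp1 1.51-fold (0.59 ± 0.17, adjusted p = 0.00727), while Aen fell 1.42-fold (-0.50 ± 0.12, adjusted p = 0.00114). Mdm2 (0.24 ± 0.09, adjusted p = 0.0315) and Phlda3 (0.28 ± 0.11, adjusted p = 0.0483) rose as well, and both calls, like that of Trp53inp1, ended when single libraries were left out. Those of Mdm2 (0.24) and Phlda3 (0.29) also ended in a fit of those days alone, and that of Phlda3 with no low-count filter (0.28). Over the whole course the mean level of Cdkn1a in global lungs was 7.13 ± 0.60 CPM at E12.5, 7.19 ± 1.62 at E14.5, 9.44 ± 2.55 at E16.5 and 13.1 ± 1.90 at E18.5 (SD, n = 3, 4, 3 and 5). In controls it was 4.45 ± 0.19, 10.4 ± 1.96, 17.6 ± 2.51 and 61.4 ± 33.2 CPM at the same days (SD, n = 3, 3, 3 and 5). Aen went down in both, with 43.7 ± 2.31, 35.5 ± 2.33, 33.8 ± 3.21 and 25.7 ± 1.57 CPM in global lungs and 39.6 ± 2.16, 31.2 ± 2.87, 18.3 ± 1.84 and 12.9 ± 1.199 CPM in controls at the same 4 days.

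Whether the global effect itself differed between days was tested with an interaction term. Between E12.5 and E14.5 the effect changed for none of the 9 in either direction, where 0.0382% of all genes had a higher and 0.00546% a lower effect at the later day, and 1 member had an unadjusted p under 0.05. Between E14.5 and E16.5 the effect became higher for 2 (Aen by 0.70 ± 0.17, edgeR adjusted p = 0.0114, and Bax by 0.43 ± 0.12, adjusted p = 0.0331) and lower for 1 (Mdm2 by -0.50 ± 0.13, adjusted p = 0.0186), where 4.01% and 3.87% of all genes did so. With 1 library of 13 left out, the call of Bax ended in 10 fits and that of Mdm2 in 2. That of Bax also ended with no low-count filter (0.41). Between E16.5 and E18.5 the effect became lower for 1, Cdkn1a (-1.31 ± 0.41, adjusted p = 0.0372), where 3.64% of all genes had a lower effect. That call ended without any of 9 single libraries of the 16 in the comparison (-1.37 to -0.96), and in a fit of those days alone (-1.32).

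**Figure D3:**
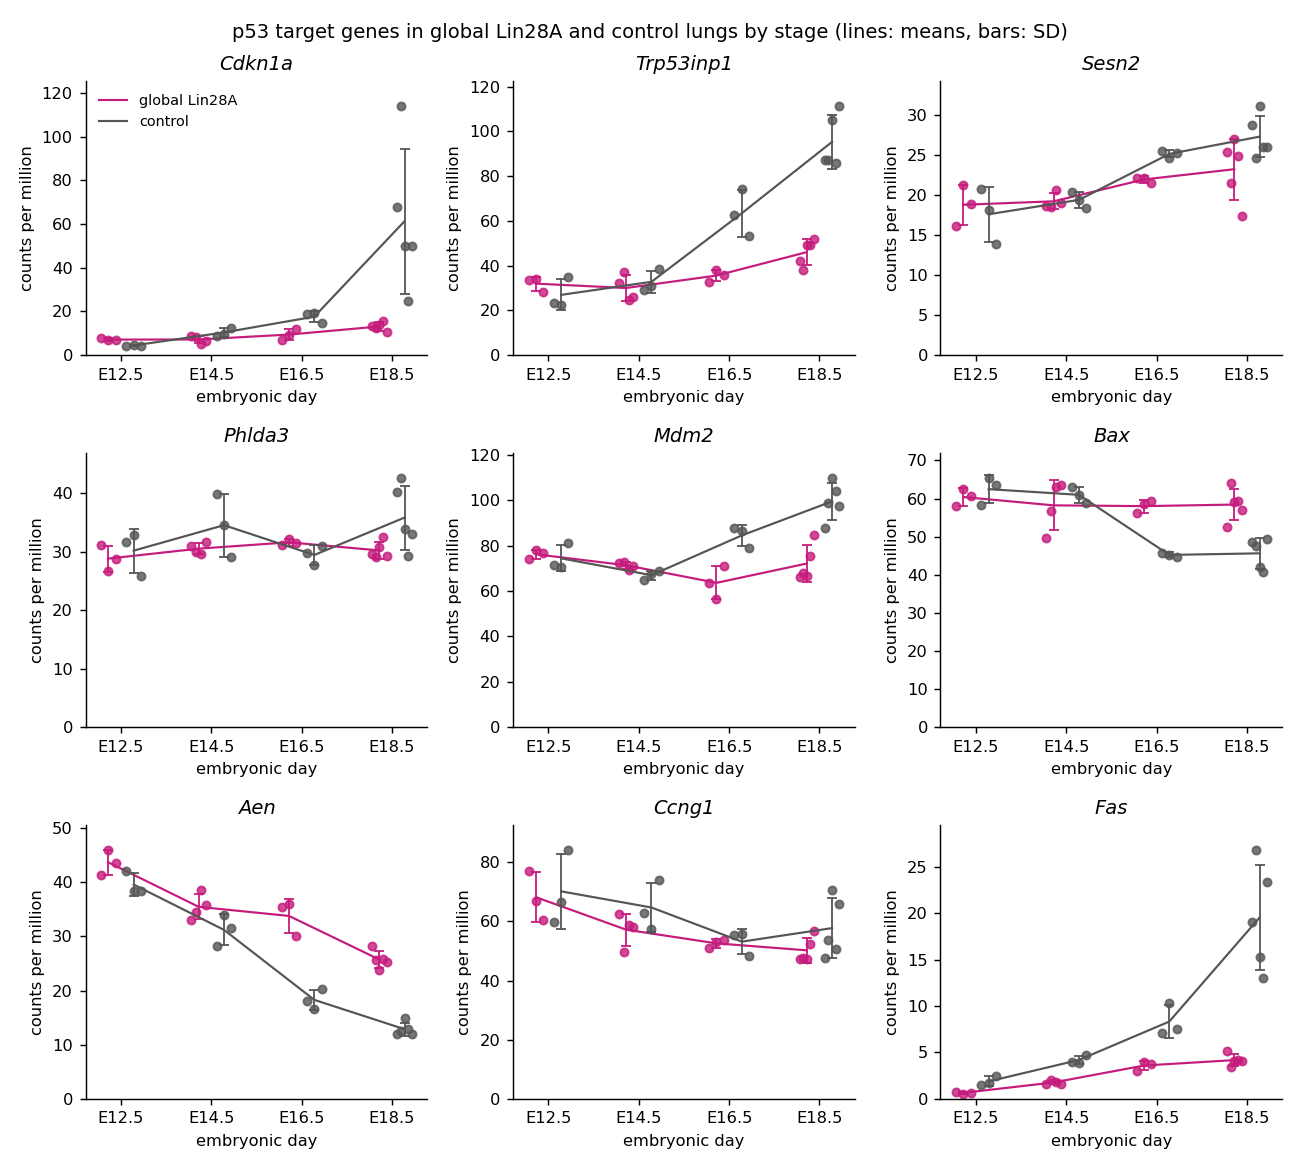
Level of the 9 p53 target genes in CPM at E12.5, E14.5, E16.5 and E18.5 in global Lin28A lungs (left of each day) and control lungs (right); points are libraries, lines join the means and bars are SDs. In controls Cdkn1a, Trp53inp1 and Fas are highest at E18.5 and Aen lowest, while global lungs hold 13.1 CPM of Cdkn1a and 25.7 CPM of Aen in the mean at that day.

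Other p53 target genes were read from a list of 38, of which 37 could be tested. In epithelial lungs 11 rose and 8 fell against controls, with a median log2 fold of 0.12, where 18% of all genes rose and 15.2% fell. In global lungs 10 rose and 18 fell (median -0.22), where 32.1% of all genes rose and 32.7% fell. In mesenchymal lungs 8 rose and 15 fell (median -0.35), where 27.4% rose and 26.9% fell. Epithelial lungs had 16 of the 37 higher and 7 lower than global lungs, where 31.8% of all genes were higher and 31.3% lower. The 8 genes that fell in epithelial lungs moved opposite to Cdkn1a. Perp, a desmosomal protein that p53 and p63 induce in epithelia, stood at 128 to 237 CPM in epithelial lungs and 21.6 to 33.9 CPM in global lungs, against 40.8 to 56.5 CPM in controls (2.01 ± 0.33 in epithelial lungs, edgeR adjusted p = 2.63e-05, and -0.83 ± 0.31 in global lungs, adjusted p = 0.0181). Tnfrsf10b, the mouse receptor for the death ligand TRAIL, rose in epithelial lungs (1.17 ± 0.19, adjusted p = 1.82e-05) and did not pass in global lungs (0.09 ± 0.17, adjusted p = 0.663). Fdxr, a mitochondrial reductase, fell in epithelial lungs to 4.48 ± 2.34 CPM, against 14.7 ± 1.65 CPM in controls (SD, n = 3 and n = 5; -1.71 ± 0.18, adjusted p = 2.58e-08). Ptprv, a receptor-type phosphatase, fell in epithelial lungs as well (-1.65 ± 0.56, adjusted p = 0.0228), at levels of 0.357 to 0.551 CPM there and 0.642 to 1.81 CPM in controls. In global lungs the largest falls called were of Btg2, an antiproliferative cofactor (-2.48 ± 0.40, adjusted p = 3.97e-06), and Ephx1, an epoxide hydrolase (-2.37 ± 0.21, adjusted p = 5.92e-11). Btg2 ranged from 214 to 1987 CPM among the controls.

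**Figure D4:**
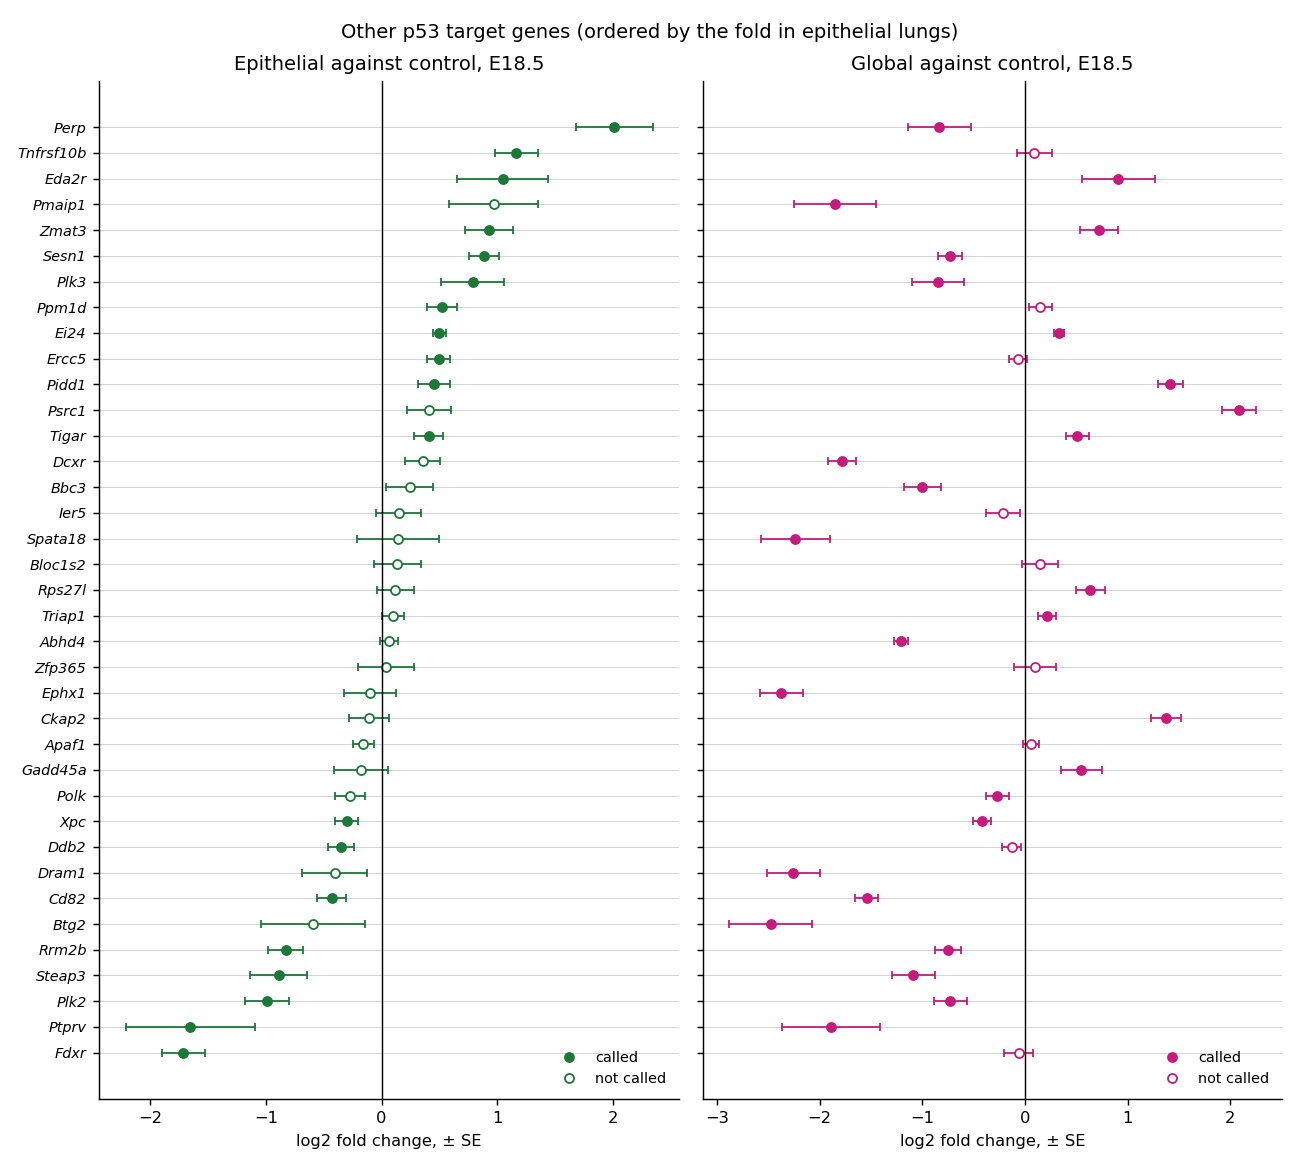
Log2 fold (horizontal axis, ± SE) of 37 other p53 target genes in epithelial (left) and global (right) Lin28A lungs against controls at E18.5, ordered by the fold in epithelial lungs; filled circles were called. In epithelial lungs 11 lie right of 0 and 8 left of it as calls, led by Perp at the top and Fdxr at the bottom; in global lungs 10 and 18 do.

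Genes that regulate p53 were tested as a list of 22, of which 21 passed the filter. In epithelial lungs 4 rose and 5 fell (median 0.17), in global lungs 12 rose and 5 fell (median 0.56) and in mesenchymal lungs 12 rose and 4 fell (median 0.53). Of all genes tested 18% rose and 15.2% fell in epithelial, 32.1% and 32.7% in global and 27.4% and 26.9% in mesenchymal lungs, so the epithelial counts lie near those of genes in general. The damage-sensing kinases Atr (-0.77 ± 0.11, edgeR adjusted p = 5.47e-06), Atm (-0.74 ± 0.24, adjusted p = 0.0179) and Prkdc (-0.62 ± 0.16, adjusted p = 0.0031) and the checkpoint kinase Chek2 (-0.61 ± 0.21, adjusted p = 0.0222) fell in epithelial lungs. The same 4 rose in global lungs, Atr by 0.34 ± 0.09, Atm by 0.67 ± 0.20, Prkdc by 0.56 ± 0.13 and Chek2 by 0.63 ± 0.17 (adjusted p up to 0.00396). The checkpoint kinase Chek1 stood at 45.9 ± 6.49 CPM in global lungs, against 8.49 ± 4.92 CPM in controls (SD, n = 5 each; 2.38 ± 0.21, adjusted p = 5.95e-11), and Trp73, a p53 relative, fell there (-1.33 ± 0.37, adjusted p = 0.0027).

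Of 7 inhibitors of cyclin-dependent kinases that were tested, Cdkn1a was the only one called in epithelial lungs, and 2 rose and 4 fell in global lungs, beside 18% of all genes that rose and 15.2% that fell in epithelial lungs and 32.1% and 32.7% in global lungs. Cdkn2b, which encodes p15 and is induced by TGF-beta, stood at 45.5 ± 5.75 CPM in epithelial lungs (n = 3) and 2.07 ± 0.91 CPM in global lungs (n = 5), against 53.2 ± 13.6 CPM in controls (SD, n = 5). Its log2 fold was -0.22 ± 0.25 in epithelial lungs (edgeR adjusted p = 0.535) and -4.68 ± 0.28 in global lungs (adjusted p = 3.06e-14). The list of 30 cell cycle genes that p21 is known to lower through the DREAM repressor complex was tested beside this. In epithelial lungs, where Cdkn1a was highest, 2 of the 30 rose, 1 fell and 27 did not pass (median log2 fold 0.10), where 18% of all genes rose and 15.2% fell. In global lungs 29 rose and 1 fell (median 1.68), where 32.1% and 32.7% of all genes did so, and in mesenchymal lungs 29 rose and 1 fell (median 1.67), where 27.4% and 26.9% did so. Between the sites, 29 of the 30 were lower in epithelial than in global lungs, and E2f2 was higher. Of all genes, 31.3% were lower and 31.8% higher in that comparison. In epithelial lungs Mybl2, a cell cycle transcription factor, rose (0.73 ± 0.14, adjusted p = 0.000198), the mitotic kinase Cdk1 rose at the edge of the threshold (0.42 ± 0.17, adjusted p = 0.04997) and E2f1, which drives entry into S phase, fell (-0.56 ± 0.15, adjusted p = 0.00505). The replication helicase subunits Mcm5 and Mcm3 stood at 64.0 ± 12.7 and 71.5 ± 2.36 CPM in epithelial lungs (n = 3) and at 231 ± 12.6 and 239 ± 17.96 CPM in global lungs (n = 5), against 52.3 ± 23.7 and 56.7 ± 20.4 CPM in controls (SD, n = 5).

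The apoptosis machinery was tested as a list of 23, of which 21 passed the filter. In epithelial lungs 5 rose and 3 fell, in global lungs 5 rose and 8 fell and in mesenchymal lungs 4 rose and 7 fell. The shares of all genes that rose and fell were 18% and 15.2% in epithelial, 32.1% and 32.7% in global and 27.4% and 26.9% in mesenchymal lungs, and the epithelial counts lie near them. In epithelial lungs the survival gene Bcl2l1 (1.196 ± 0.14, edgeR adjusted p = 1.37e-07) and the death-promoting Bcl2l11, which encodes Bim (0.90 ± 0.10, adjusted p = 4.1e-08), and Bid (0.55 ± 0.20, adjusted p = 0.0327) rose, and the survival gene Bcl2 fell (-0.71 ± 0.14, adjusted p = 0.000338). In global lungs Bid rose (1.47 ± 0.17, adjusted p = 1.32e-08) and Bcl2l1 fell (-0.69 ± 0.13, adjusted p = 2.12e-05).

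Because Sesn2 is also a target of the stress factor Atf4, the genes of that response were tested as a list of 20, of which 19 passed the filter. In epithelial lungs 9 rose and 1 fell (median 0.56), in global lungs 4 rose and 9 fell (median -0.06) and in mesenchymal lungs 4 rose and 8 fell (median -0.65). Among all genes 18% rose and 15.2% fell in epithelial, 32.1% and 32.7% in global and 27.4% and 26.9% in mesenchymal lungs. The amino acid transporters Slc7a5 (1.94 ± 0.23, edgeR adjusted p = 1.53e-07) and Slc7a11 (1.77 ± 0.35, adjusted p = 0.000228), the mitochondrial folate enzyme Mthfd2 (1.67 ± 0.24, adjusted p = 3.98e-06) and the asparagine synthetase gene Asns (1.62 ± 0.19, adjusted p = 1.16e-07) rose in epithelial lungs. In global lungs Asns (1.41 ± 0.17, adjusted p = 2.3e-08), Mthfd2 (2.18 ± 0.22, adjusted p = 6.08e-10) and Phgdh, the first enzyme of serine synthesis (3.12 ± 0.16, adjusted p = 5.2e-15), rose as well, while Slc7a5 (0.21 ± 0.21, adjusted p = 0.394) and Slc7a11 (0.19 ± 0.34, adjusted p = 0.636) did not pass. Atf3 fell in global lungs (-5.42 ± 0.96, adjusted p = 1.35e-05), with 2.64 to 3.43 CPM there and 4.54 to 421 CPM among the controls.

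**Figure D5:**
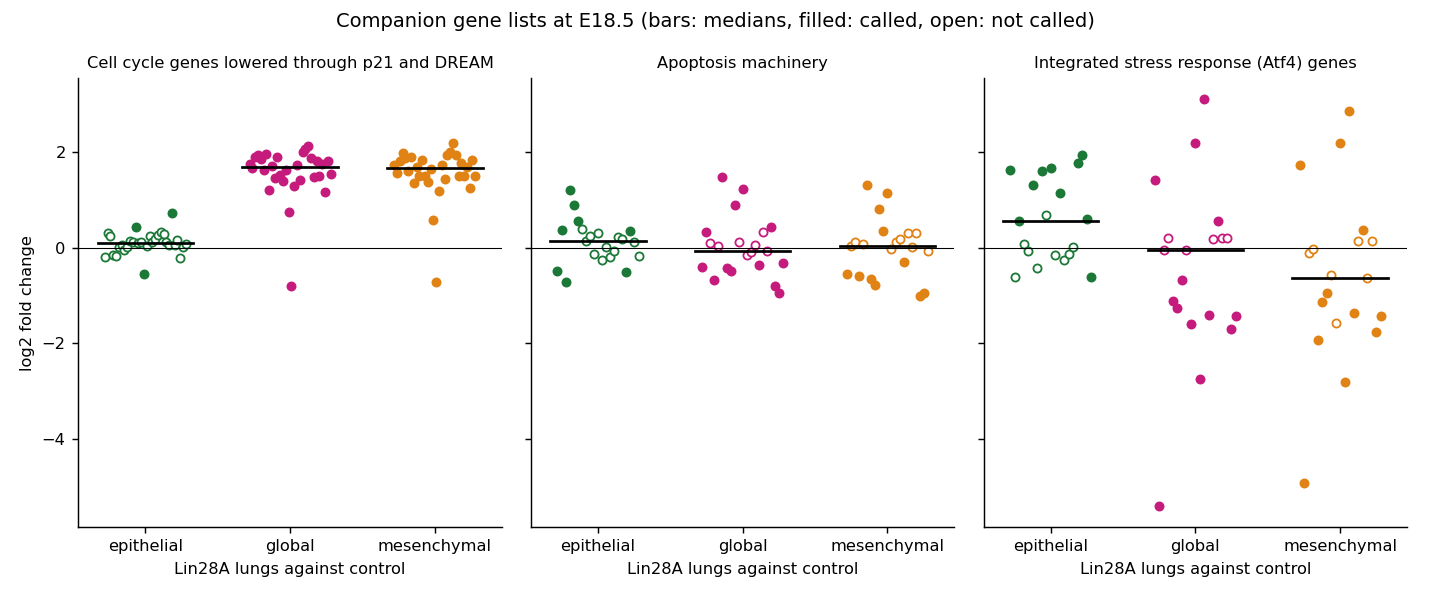
Log2 fold of each tested gene of 3 lists (30 cell cycle genes, 21 apoptosis genes and 19 Atf4 response genes) in epithelial, global and mesenchymal Lin28A lungs against controls at E18.5; bars are medians and filled circles were called. The cell cycle genes lie near 0 in epithelial lungs (median 0.10) and near 1.68 in global lungs, the apoptosis genes spread to both sides in all 3, and the Atf4 genes have medians of 0.56, -0.06 and -0.65.

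Over the 15 E18.5 libraries, the genes whose log2 CPM ran closest to the mean standardized level of the 9 members were Ocln (Pearson r 0.978), Perp (0.973), Ackr3 (0.973), Lpin2 (0.971), Usp12 (0.968) and Cyth1 (0.966), out of 12263 genes. The libraries form 4 groups, so these values mostly restate group means. Among the members the same value was highest for Trp53inp1 (0.964) and Cdkn1a (0.948), then 0.915 for Phlda3, 0.907 for Sesn2, 0.885 for Mdm2, 0.683 for Fas, 0.548 for Ccng1, 0.234 for Bax and -0.167 for Aen. Each member is part of the mean it was set against. Ocln, the tight-junction protein occludin of epithelial cells, stood at 159 ± 40.1 CPM in epithelial (n = 3), 46.8 ± 3.45 in global (n = 5) and 42.4 ± 0.10 in mesenchymal lungs (n = 2), against 55.5 ± 5.80 CPM in controls (SD, n = 5).

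Since Lin28A blocks let-7, the members were searched for the let-7 seed match CTACCTC, read on the transcript strand of the 3' UTR of 1 coding transcript per gene, the one with the longest coding sequence. The mature let-7a with its seed (bases 2 to 8) in capitals and the matches with theirs are shown, because these are the members that hold it.
let-7a-5p: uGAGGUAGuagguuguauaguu
Aen: agtggcagagcCTACCTCatggggtgtgt
Fas: aaaCTACCTCagttccagcca
The Aen match lies in the 3' UTR at chr7:78907802-78907830 and the Fas match at chr19:34327325-34327345, both on the plus strand of GRCm38. So 2 of the 9 members held the match, and 8.73% of 16334 genes did, with a median 3' UTR length of 1335 bases in the members and 892 bases over all genes. Aen rose and Fas fell in global lungs, and the part of let-7 in these changes was not tested.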

How the data were processed

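Poly(A) RNA of mouse embryonic lungs was sequenced in 34 libraries, per the labels' protocols. The authors deposited 1 raw count per gene and library, and these counts were used as deposited. The submitters' processing notes name bcl2fastq 2.17.1.14, cutadapt, STAR 2.4.2a, HTSeq 0.6.1p1, DESeq2 1.10.1 and GRCm38; how each was used, the gene annotation and the strand setting of the counts are not given in the sources used here. A deposited column headed Wt2 was taken as the second mesenchymal library, titled Wt1, by its day and number. Genes were named with GENCODE M21 (21754 of 21789 identifiers matched), and each has at least 6 counts in 1 library, so rarer genes are not analysed here.

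Counts were fitted in R 4.3.3 with edgeR 4.0.16 (limma 3.58.1): TMM scaling, filterByExpr, and 1 quasi-likelihood model of 10 group means with 24 residual degrees of freedom, in which the smaller groups share the estimate of spread. P-values were adjusted by the Benjamini-Hochberg method over 18319 genes within each of 14 comparisons. CPM are counts scaled to the TMM-adjusted library total, and log2 CPM has a prior count of 2. The script was tested on simulated data. DESeq2 1.42.0, DESeq2 size factors, no low-count filter, the days compared only, a replicate block and each library left out were alternatives.

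Besides the 9 members, Trp53, Mdm4 and Lin28a, genes were named by a rule: in each companion list up to 4 called genes with the largest absolute log2 fold in epithelial lungs and up to 2 in global lungs, and the 6 genes most like the members with a mean of at least 5 CPM. A gene that this rule names is not reported here. E2f2 and 5 genes in the closing section were named after their values were seen. The members, lists and rules were chosen with earlier results of these data known, so a count over them is a description. No libraries were identical.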

Additional observations from a re-analysis of the deposited data

Results flagged for a closer look

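The level of Mdm4 in global library 5 at E18.5, 215.936 CPM, stood far from the other 4 global libraries (174 to 183 CPM). This was 1 of 33 groups of libraries examined for a library far from the rest, and chance alone gives about 1 in 20.

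The response to Lin28A differed by site at E18.5, by the direct edgeR test between sites. Between epithelial and global lungs the log2 folds differed by 4.63 for Cdkn1a, 2.86 for Trp53inp1, 2.14 for Fas, 1.137 for Sesn2, 0.90 for Mdm2, 0.71 for Phlda3, -0.30 for Aen, -0.40 for Mdm4 and -0.70 for Trp53. Between epithelial and mesenchymal lungs they differed by 4.83 for Cdkn1a, 2.89 for Trp53inp1, 2.174 for Fas, 1.34 for Sesn2, 0.99 for Phlda3, 0.77 for Mdm2, -0.48 for Mdm4 and -0.60 for Trp53. The epithelial marker sum, 4898 to 5722 CPM in epithelial lungs against 2149 to 2790 CPM in global lungs, moved with these differences, and its part was not tested.

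The response to global Lin28A differed between days by an interaction term. Between E14.5 and E16.5 it changed by 0.70 for Aen, 0.69 for Trp53, 0.43 for Bax and -0.50 for Mdm2. With 1 library left out, the Bax call ended in 10 of 13 fits, that of Mdm2 in 2 and that of Aen in none. Trp53 was not checked in this way. Between E16.5 and E18.5 the response changed by -1.31 for Cdkn1a, a call that ended in 9 of 16 such fits.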

How the results depend on the processing

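Called members at E18.5 numbered 7 in epithelial, 7 in global and 8 in mesenchymal lungs against controls, 7 between epithelial and global and 6 between epithelial and mesenchymal lungs. With 1 library left out these counts ran 7 to 7, 6 to 7, 5 to 8 (5 without mesenchymal library 2), 6 to 8 and 6 to 7. For global lungs on the earlier days they ran 0 to 1 (E12.5), 1 to 1 (E14.5) and 5 to 6 (E16.5), then 1 to 2, 5 to 6 and 3 to 6 in the control steps and 0 to 0, 1 to 3 and 0 to 2 in the changes of the global effect. At E12.5 DESeq2 called 1 (Fas), where edgeR called 0. Without both odd E14.5 libraries, chosen after seeing the data, 0 were called in global lungs at E14.5 and 1 in the control step before it. Between E14.5 and E16.5 controls the fit of only those days called 8 against 5, and the share of all genes called in that fit is not given here. For the change of the global effect between E16.5 and E18.5, DESeq2 and its size factors each called 2, and the days-only fit called 0, against 1. Whether replicate numbers pair the libraries was not settled. Of 26 same-number pairs, 8 had correlated deviations over 0.1 (lowest -0.15, highest 0.29), and pairs of unlike number were not compared. A replicate block called 0 in the control step to E14.5, 2 in that to E16.5, 1 in the change to E16.5 and 0 in that to E18.5. Across single members and alternatives, 82 of 1746 values lost a call, 32 gained one and no called value changed sign. Bax in mesenchymal lungs, Phlda3 in global lungs and Aen between epithelial and global lungs were among the calls lost under both the block and the days-only fit, and the block also lost that of Mdm2 in mesenchymal lungs. Signs of 24 uncalled folds, all within -0.13 to 0.14, changed in 61 values. The cause was not tested. Counts of 7 to 33 per library limit Fas at E12.5.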

Other observations

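Among the other p53 target genes, 5 were named here after their values were seen, because they act in the same branches as members. The death-promoting BH3 genes Pmaip1 (Noxa) and Bbc3 (Puma) fell in global lungs (log2 folds -1.85 ± 0.40, edgeR adjusted p = 0.00017, and -0.999 ± 0.18, adjusted p = 1.99e-05) and in mesenchymal lungs (-2.02 ± 0.56, adjusted p = 0.00302, and -1.23 ± 0.25, adjusted p = 0.000154). In epithelial lungs neither passed (0.97 ± 0.38, adjusted p = 0.051, and 0.24 ± 0.20, adjusted p = 0.377). Sesn1, the sestrin related to Sesn2, rose in epithelial lungs (0.89 ± 0.13, adjusted p = 4.87e-06) and fell in global (-0.73 ± 0.12, adjusted p = 3.56e-06) and mesenchymal lungs (-0.66 ± 0.16, adjusted p = 0.000895). The RNA-binding gene Zmat3 and the ectodysplasin receptor gene Eda2r rose in epithelial lungs (0.93 ± 0.21, adjusted p = 0.000835, and 1.05 ± 0.39, adjusted p = 0.0409) and also in global lungs (0.72 ± 0.18, adjusted p = 0.00109, and 0.91 ± 0.35, adjusted p = 0.025).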
